A study of Mus musculus with 6 samples.

Results

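The genes examined here encode voltage-gated calcium and sodium channels, potassium channels and the subunits named with them, in MIN6 cells. This line was derived from a mouse insulinoma and keeps the ability to release insulin. They were taken from the deposited table by the start of the gene symbol, namely Kcn, Cacna, Cacnb, Cacng, or Scn followed by a digit, and 1 further gene that fits this pattern was left out by the rule. Of 133 such genes, the members are the 95 that were selected on having at least 10 counts summed over the 6 samples, out of 22298 genes in the table. They are 63 potassium, 23 calcium and 9 sodium channel genes. Of the others, 31 had 1 to 9 counts and 7 had 0. Just inside the limit stood Kcnh3 with 10 counts and Kcne1, Kcng2 and Kcnj13 with 11, and just outside it Kcnk4, Kcnj14 and Kcng4 with 9. Selection by symbol also takes in proteins that form no pore, such as Kcnrg, a regulator of potassium channels, the Kcnip family of calcium sensors that bind voltage-gated potassium channels, and Cacng4 and Cacng7, which also act as auxiliary subunits of AMPA-type glutamate receptors.

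Voltage-gated channels set how a beta cell turns a rise in glucose into insulin release. Closure of the ATP-sensitive potassium channels depolarises the membrane, voltage-gated calcium channels then open, and the calcium that enters drives exocytosis. Sodium channels add to the upstroke of the action potential in rodent beta cells, voltage-gated and large-conductance potassium channels repolarise it, and leak channels of the K2P family, whose subunits each carry a pair of pore domains, help to set the resting potential.

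RNA was sequenced from 3 control samples and from 3 samples of chronic epinephrine exposure, in which MIN6 cells of passages 32 to 40 were given 100 nM epinephrine. The design has 3 days with the hormone followed by 2 days without it, and the day on which RNA was taken is not given in the sources used here. All groups are the same cell line, a tumour-derived beta-cell line, and no sample was taken from islets. Some markers of other islet cells were detected, as given below. The methods speak in general terms of at least 3 biological replicates and define n as independent samples per group. Neither they nor the labels say that the RNA samples came from separate cultures. The p-values weigh the difference between groups against variation between samples as each test estimates it. Whether that variation includes differences between cultures is not known.

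Totals were 15017065 to 18127171 expected counts per sample, at which 3 counts, the limit that a count of 0 allows, come to 0.166 to 0.2 CPM (counts scaled to the size of the library). All 12 listed beta-cell markers had a mean over 1 CPM, and their sum was 29081 to 32961 CPM in the control group and 34423 to 34468 CPM after epinephrine. Of the exocrine markers, 0 of 8 passed 1 CPM, with Cpa1 and Pnlip at 0 counts in all samples. Of the neuronal markers, 5 of 8 passed it, with sums of 960 to 1108 and 1003 to 1019 CPM. Markers of other islet cells, led by Ttr and Gcg, passed 1 CPM for 3 of 8 genes, with sums of 1014 to 1547 CPM in the control group and 1957 to 2155 CPM after epinephrine. The hepatocyte list, which shares Ttr with it, passed 1 CPM for 8 of 10 genes and summed to 847 to 1501 and 1563 to 1750 CPM. Fibroblast markers passed it for 3 of 8 genes and summed to 1.77 to 23.2 and 1.92 to 19.7 CPM. Leukocyte markers passed it for 1 of 8 genes and summed to 1.09 to 3.24 and 3.14 to 4.33 CPM. The part of these genes in the channel results was not tested. Control 1 stood apart from the other 5 samples. Its correlation with the other controls across genes was 0.976, while controls 2 and 3 correlated at 0.991 and the epinephrine samples at 0.990 to 0.992. The members took 0.217% of all counts in control 1 and 0.173% to 0.180% in the other samples. Values without control 1 are therefore given beside the counts and the genes that it moves.

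Channel genes spanned a wide range of levels in these cells. On the FPKM scale, which divides by transcript length and so allows genes to be compared, 13 of the 95 members had a mean of at least 10, 32 lay between 1 and 10, and 50 were under 1. The classes held 9, 21 and 33 potassium, 4, 8 and 11 calcium and 0, 3 and 6 sodium channel genes.

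Among potassium channel genes the highest level was that of Kcnip1, a calcium-binding partner of voltage-gated potassium channels, with 32.4 ± 4.60 FPKM in the control group and 43.3 ± 2.21 FPKM after epinephrine (SD, n = 3). Its samples did not overlap with those of the next gene. Next came Kcnk9, an acid-sensitive K2P leak channel, at 18.3 FPKM over all samples, Kcnh6 at 18.0 and Kcnh2 at 16.1, both of the ether-a-go-go-related family, and the large-conductance channel subunit Kcnmb2 at 17.3. Each neighbour in the order of these levels overlapped with the next. Kcnk16, a K2P channel characteristic of islets, stood at 9.53 ± 0.327 FPKM in the control group and 9.79 ± 0.864 after epinephrine. Kcnma1, the pore of the large-conductance calcium-activated channel, stood at 7.81 ± 0.737 and 7.84 ± 0.605 FPKM. Kcnq1, Kcnn4 and Kcnk3, which are also known from beta-cell electrophysiology, had 4, 1 and 4 counts in all and were not members.

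Calcium channel genes were led by the alpha2delta subunit Cacna2d1 at 30.3 FPKM and Cacng7 at 27.9 FPKM, whose samples overlapped. A gap separated them from the beta subunit Cacnb2 at 10.6 FPKM. The L-type pore genes, which carry most of the glucose-evoked calcium current, were Cacna1c at 11.0 ± 2.36 FPKM in the control group and 10.2 ± 0.173 after epinephrine, and Cacna1d at 7.60 ± 1.74 and 7.69 ± 0.596 FPKM. The T-type pore gene Cacna1h, at 9.43 FPKM over all samples, lay between them and overlapped with its neighbours. A further gap lay between Cacna1d and the N-type pore gene Cacna1b at 3.53 FPKM. Among sodium channel genes the auxiliary subunit Scn3b stood at 6.32 FPKM. Scn8a was the highest pore gene at 5.87 FPKM, overlapped with Scn3b and was apart from Scn3a, Scn9a and Scn1a, which overlapped with each other at 0.897, 0.842 and 0.790 FPKM.

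**Figure D1:**
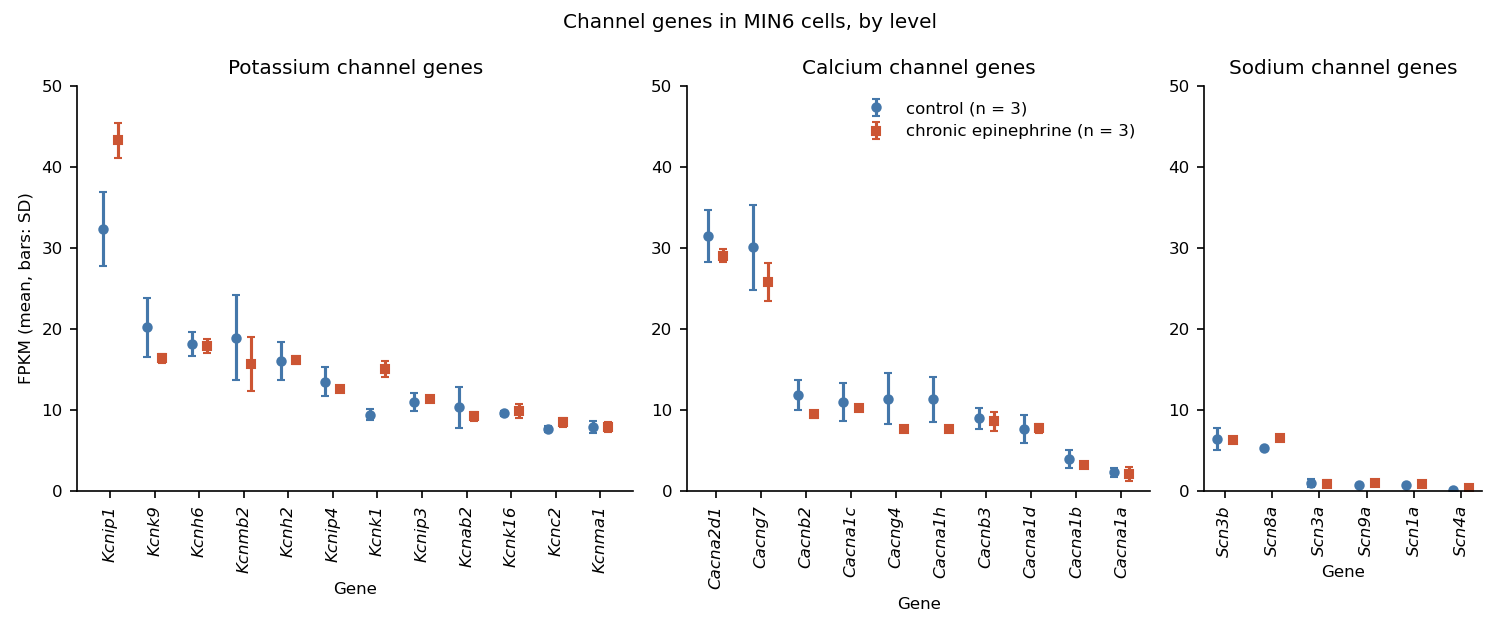
Mean FPKM (points, with SD bars, n = 3) of channel genes with high levels, potassium, calcium and sodium, in control and chronic epinephrine samples. Kcnip1 was the highest potassium channel gene, Cacna2d1 and Cacng7 led the calcium channel genes, and Scn3b and Scn8a lay above the other sodium channel genes drawn.

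Kcnk1 and Kcnt2, both potassium channel genes, were upregulated at an FDR under 0.05 (edgeR quasi-likelihood test, Benjamini-Hochberg adjustment over 12747 genes), and 0 of the members were downregulated at that threshold with these settings. At an unadjusted p under 0.05, 9 members were higher and 8 lower. Among all genes tested, 9.19% were higher and 7.91% lower at that unadjusted p. At an FDR under 0.05, 2.02% were called higher and 0.612% lower, so the members' counts of 2 and 0 are near what the whole table gives. The filter on low counts kept 75 members for this test, of which 48 encode potassium, 19 calcium and 8 sodium channels, and 20 were not tested. Of those kept, 7 reached the filter's 0.606 CPM in all 3 samples of 1 group only, namely Kcnmb1, Kcnab1, Kcnrg and Cacng3 in the epinephrine group and Cacna1i, Kcnh4 and Cacng5 in the control group. The change was under 0.2 on the log2 scale in either direction for 40 of the 75 members, and for 8089 of the 12747 genes tested in all.

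For the upregulated pair, the 250 bases before the RefSeq transcription start are shown on the plus strand of GRCm38.p6, as the region just upstream of that start. The window of Kcnk1 is chr8:125994852-125995101 and that of Kcnt2 is chr1:140245468-140245717. GENCODE places the gene starts further downstream, at 125995170 for Kcnk1 and 140246158 for Kcnt2, so the windows do not reach them. Capitals mark the core of the cAMP response element, searched as TGACG on both strands, because adrenergic receptors of beta cells act on cAMP.

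Kcnk1: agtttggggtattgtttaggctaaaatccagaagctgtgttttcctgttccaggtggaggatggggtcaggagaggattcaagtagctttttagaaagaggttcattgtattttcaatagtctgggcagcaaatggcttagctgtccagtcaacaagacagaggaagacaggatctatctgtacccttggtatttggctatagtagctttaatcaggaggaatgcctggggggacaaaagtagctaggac

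Kcnt2: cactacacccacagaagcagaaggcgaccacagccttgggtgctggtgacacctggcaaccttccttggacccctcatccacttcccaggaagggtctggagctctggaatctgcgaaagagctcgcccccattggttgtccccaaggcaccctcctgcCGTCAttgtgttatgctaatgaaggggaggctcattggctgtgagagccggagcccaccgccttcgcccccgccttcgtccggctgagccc

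The Kcnk1 window had a GC content of 44.4%, 0 CpG dinucleotides and no match. The Kcnt2 window had a GC content of 61.6%, 10 CpG dinucleotides and 1 match to the core on the reverse strand. It begins 91 bases before the RefSeq start. RefSeq windows were found for 70 of the 95 members, 102 windows in all. The core was in 17 of them, or 16.7%, and in 17.75% of the 32817 windows of all genes. The full site TGACGTCA, which contains the core, was in 0 of the 102 and in 1.548% of all windows. The composite site of ATF4 and CHOP, searched as TGATGNAA on both strands, was in 4 of the 102, or 3.92%, and in 3.452% of all windows.

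Kcnk1 encodes a K2P channel with weak inward rectification (ENSMUSG00000033998, chr8:125995170-126030685 in GENCODE release 21 on GRCm38). It was measured at 19.0, 19.5 and 21.6 CPM in controls 1 to 3 and at 34.0, 31.8 and 29.6 CPM in epinephrine samples 1 to 3. All 3 epinephrine samples lay above all 3 controls. The change was 0.67 ± 0.10 on the log2 scale (SE), or 1.59-fold, with an edgeR FDR of 0.0125, and 0.63 with an FDR of 4.27e-06 without control 1. With 3 samples a group an exact permutation test (two-sided) can reach no lower p than 0.1, and p = 0.1 was found here. On the length-scaled measure its level went from 9.37 ± 0.66 to 15.02 ± 0.951 FPKM (SD, n = 3).

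Kcnt2 encodes a sodium-activated potassium channel of the Slo family (ENSMUSG00000052726, chr1:140246158-140612067). It was a low transcript, with 10, 19 and 17 counts in controls 1 to 3 and 55, 57 and 34 counts in the epinephrine samples. After scaling these came to 0.647, 1.09 and 1.06 CPM against 3.26, 3.19 and 2.25 CPM. The lowest epinephrine sample lay above the highest control. The change was 1.63 ± 0.28 on the log2 scale, or 3.09-fold, with an edgeR FDR of 0.0219, and it was 1.43 with an FDR of 0.00124 without control 1. The exact permutation p was 0.1. Kcnt2 was the one member past both an FDR of 0.05 and a 2-fold increase, which 0.635% of all genes tested passed upward. Leaving out control 2 or any of the epinephrine samples took the FDR of both genes above 0.05, and leaving out control 3 did so for Kcnt2. A replicate block gave FDRs of 0.0543 for Kcnk1 and 0.067 for Kcnt2, and limma on log2(FPKM + 1) gave an FDR of 0.0554 for Kcnt2. Nothing in the labels says that the replicate numbers mark pairs. Each gene overlaps an exon of an antisense gene on the other strand, Gm45875 for Kcnk1 and 4930590L20Rik for Kcnt2, and whether the authors' counting used strand is not given in the sources used here.

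**Figure D2:**
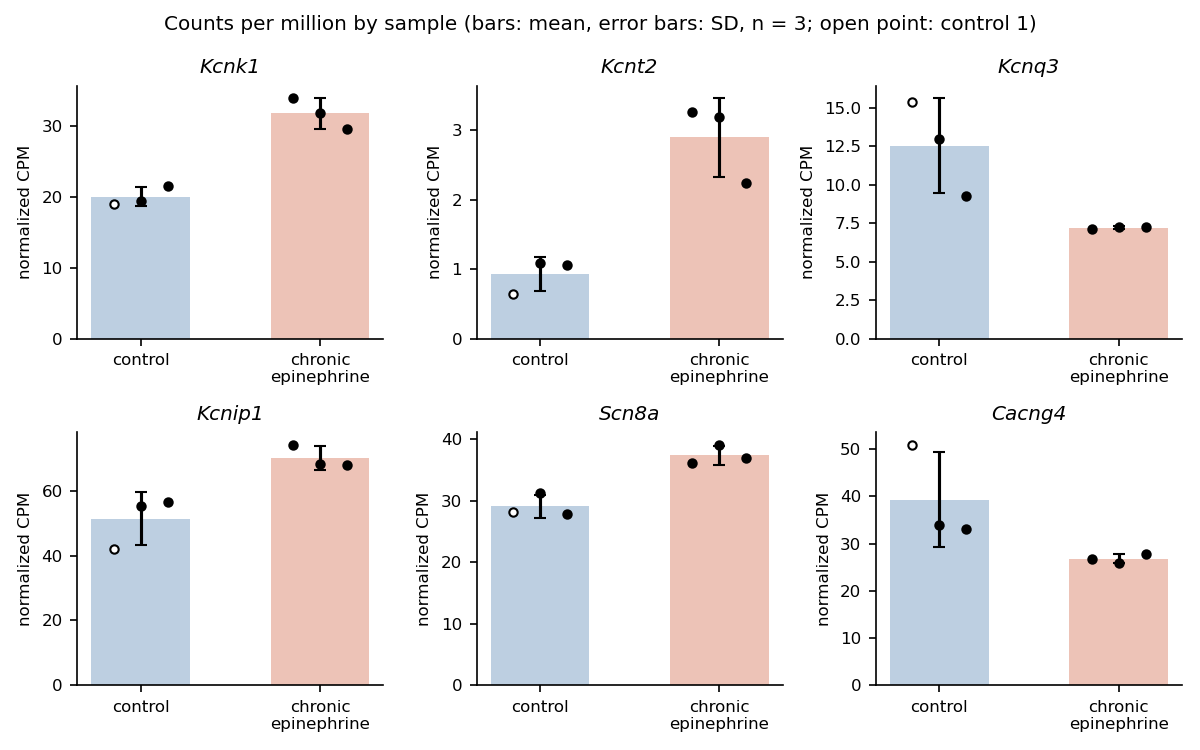
Normalised CPM of 6 channel genes in each sample (points), with the group mean (bars from 0) and SD (error bars, n = 3) and control 1 as the open point. The groups did not overlap for any of these genes. Over all genes tested this held for 14.3% higher and 13.0% lower after epinephrine. Control 1 was the highest sample for Kcnq3 and Cacng4 and the lowest for Kcnip1, Kcnk1 and Kcnt2.

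Of the voltage-gated potassium channel pores, 0 were called by edgeR with all samples as the test was set up here. Among all genes, that fit called 2.02% higher and 0.612% lower. Of these pores 1, Kcnq3, was called lower by DESeq2 and by edgeR under other settings. DESeq2 called 2.04% of all genes lower. Of the 22 pores tested, 12 had a positive and 10 a negative change, with a median of 0.01 on the log2 scale. Over all genes 6311 were positive and 6436 negative. Kcnq3, a subunit of the M-type channel, was measured at 15.4, 13.0 and 9.26 CPM in the controls and 7.12, 7.23 and 7.27 CPM after epinephrine. The epinephrine samples were nearly equal and lay below all controls, which were spread widely. The difference of -0.80 ± 0.18 on the log2 scale had an edgeR FDR of 0.0653, and of 0.00158 without control 1, where it was -0.63. Its DESeq2 FDR with all samples was 0.0109. The edgeR FDR of Kcnq3 with all samples was 0.0451 with no filter on low counts. It was 0.00944 with an offset that allows for the length and GC content of each transcript. Without control 3 it was 0.0232. Of all genes, these fits called 0.559%, 4.9% and 0.317% lower. Kcnq3 was not called without control 2 (FDR = 0.172) or when any 1 epinephrine sample was left out (FDR = 0.251 to 0.287). A replicate block gave an FDR of 0.109. On log2(FPKM + 0.1) and log2(FPKM + 1), limma gave FDRs of 0.164 and 0.16. Kcnd1 and Kcnd2, pores of the transient A-type current, differed by -0.45 (FDR = 0.279) and -0.48 (FDR = 0.225), and by -0.21 and -0.30 without control 1.

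Other voltage-gated potassium channel pores known to repolarise excitable cells did not pass the edgeR test with all samples either. Kcnc1, a fast delayed rectifier, differed by -0.53 ± 0.31 (FDR = 0.427), and by -0.14 without control 1. Kcnh2 and Kcnh6 differed by 0.04 ± 0.11 and 0.01 ± 0.09, and the latter turned negative under scaling by library size only. Without control 1 they differed by 0.15 and 0.04. Kcnh5, of the ether-a-go-go family, differed by 0.33 ± 0.14 (FDR = 0.286) and was called without control 1 at 0.48, as was its relative Kcnh1 at 0.25. That fit called 12.1% of all genes higher.

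Calcium-activated and Slo-family channels other than Kcnt2 gave no call by edgeR or DESeq2 with all samples. Kcnma1 differed by 0.04 ± 0.10, and its beta subunits Kcnmb2 and Kcnmb4 by -0.19 ± 0.12 and -0.12 ± 0.17. Without control 1 Kcnma1 differed by 0.11 and Kcnmb4 by -0.19. Kcnmb2, at 36.7, 46.2 and 43.4 CPM in the controls and 38.5, 39.6 and 32.5 CPM after epinephrine, overlapped between groups. It was called lower only when control 1, its lowest control, was left out (-0.28, FDR = 0.00992). That fit called 9.46% of all genes lower.

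In the K2P and inward rectifier families the members did not move together. Kcnk9, the K2P gene with the most counts, was at 289, 237 and 211 CPM in the controls and 209, 205 and 195 CPM after epinephrine. The lowest control was barely above the highest epinephrine sample, and the difference of -0.28 ± 0.12 (FDR = 0.285) was -0.14 without control 1. Kcnk16 differed by 0.10 ± 0.11. Kcnj6, a G protein-gated inward rectifier, was at 8.22, 9.03 and 8.82 CPM against 10.7, 11.5 and 10.05 CPM. Its groups did not overlap, and the difference of 0.31 ± 0.11 had an FDR of 0.214.

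The accessory Kcnip genes bind Kcnd channels and tune their inactivation. Kcnip1 was at 42.1, 55.6 and 56.9 CPM in the controls and 74.5, 68.4 and 68.1 CPM after epinephrine. The groups did not overlap, and control 1 was the lowest sample. The difference of 0.45 ± 0.12 had an edgeR FDR of 0.104, and without control 1 it was 0.32 with an FDR of 0.000358. With all samples the FDR was 0.0347 by DESeq2 and 0.0282 by edgeR with the offset. Kcnip2, a much lower transcript, was at 0.906, 0.972 and 1.13 CPM against 1.54, 1.57 and 2.25 CPM, a difference of 0.82 ± 0.27 with an FDR of 0.169. Kcnip3 and Kcnip4 differed by 0.08 and -0.08, and by -0.01 and -0.17 without control 1.

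**Figure D3:**
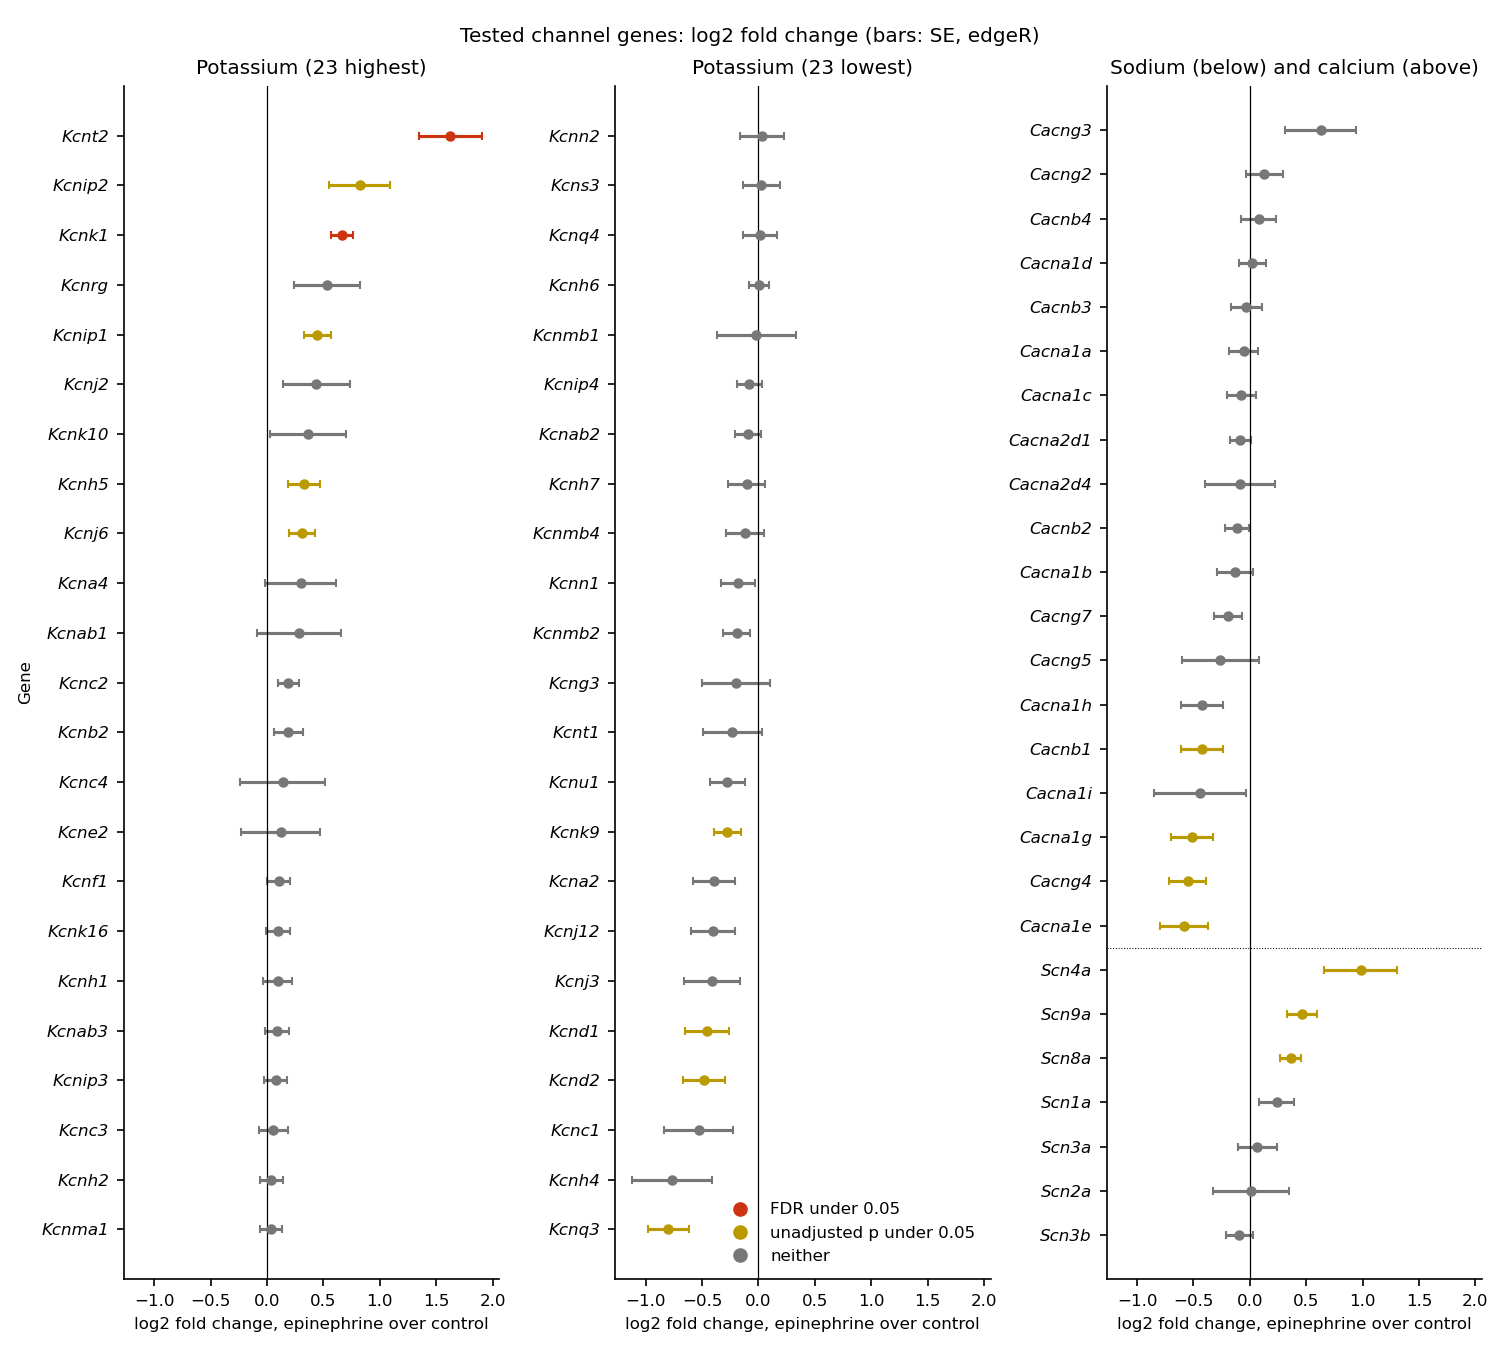
Log2 fold change (points) with its SE (bars) for tested members whose values are reported, epinephrine over control, coloured by edgeR FDR and unadjusted p. Kcnk1 and Kcnt2 passed an FDR of 0.05, and the other genes lay on both sides of 0.

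Calcium channel genes were more often lower than higher. With all samples, 0 of 19 passed an FDR of 0.05 in either direction by DESeq2 or by edgeR as set up here. Among all genes, DESeq2 called 3.18% higher and 2.04% lower, and edgeR as set up here 2.02% and 0.612%. With the offset for length and GC content, edgeR on all samples called Cacng4 and Cacna1h lower, beside 4.9% of all genes. With all samples, 4 had a positive and 15 a negative change, with a median of -0.12 on the log2 scale, and over all genes 6311 were positive and 6436 negative with a median of -0.00. At an unadjusted p under 0.05, 0 were higher and 4 lower, namely Cacng4, Cacna1g, Cacna1e and Cacnb1, beside 9.19% and 7.91% of all genes tested. Among the 8 pore genes tested the median was -0.28, with 7 negative. This depended on control 1, which lay 0.18 above the mean of the controls as a median over the calcium channel genes, while the epinephrine samples lay at -0.10, -0.06 and -0.10. Without it the median was -0.03 for calcium channel genes, with 7 positive and 12 negative, and -0.01 for their pores, with 4 positive and 4 negative. Without control 2 or control 3 the median of the calcium channel genes was -0.185 or -0.184.

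Cacng4 was at 51.0, 33.9 and 33.0 CPM in the controls and 26.6, 25.9 and 27.8 CPM after epinephrine. The groups did not overlap, with control 1 far above the rest. The difference of -0.55 ± 0.17 had an edgeR FDR of 0.137, and without control 1 it was -0.32 with an FDR of 0.00323. With the offset and all samples it was -0.51 with an FDR of 0.0138. Cacna1h was at 112, 64.9 and 69.8 CPM in the controls and 61.0, 61.0 and 61.6 CPM after epinephrine. Control 1 was well above all other samples, and the difference went from -0.42 ± 0.19 (FDR = 0.301) to -0.14 without it. With the offset and all samples the edgeR difference was -0.25 with an FDR of 0.0277. Cacna1g, a further T-type pore gene, was at 14.8, 10.5 and 11.4 CPM against 6.76, 10.2 and 8.66 CPM, with a difference of -0.51 ± 0.19 (FDR = 0.206) that was -0.35 without control 1.

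Cacna1e, the R-type pore gene, was at 3.11, 3.49 and 2.94 CPM in the controls and 1.78, 2.63 and 1.92 CPM after epinephrine. The groups did not overlap, and the difference of -0.59 ± 0.21 (FDR = 0.209) was -0.60 without control 1. Cacnb1, a beta subunit that brings pores to the membrane, differed by -0.43 ± 0.19 (FDR = 0.287). The L-type genes that lead calcium entry differed by -0.08 ± 0.13 for Cacna1c and 0.02 ± 0.12 for Cacna1d, and by 0.08 and 0.14 without control 1. The P/Q-type gene Cacna1a differed by -0.05 ± 0.13, and its sign, like that of Cacna1c and Cacna1d, changed under some of the alternatives given in the closing paragraphs. Their partners Cacna2d1, Cacnb2 and Cacnb3 differed by -0.08 ± 0.09, -0.12 ± 0.11 and -0.03 ± 0.14, and Cacng7 by -0.19 ± 0.13. Without control 1 these were -0.03, -0.04, 0.04 and -0.06.

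Of the sodium channel genes, 7 of 8 had a positive change, with a median of 0.15 on the log2 scale, and 0 of 8 passed an FDR of 0.05 by edgeR as set up here. Among all genes, edgeR as set up here called 2.02% higher and 0.612% lower. By DESeq2 1 of the 8 passed, Scn8a, with an FDR of 0.0379, beside 3.18% of all genes called higher. By edgeR with the offset Scn9a and Scn4a passed, with FDRs of 0.0448 and 0.0483, beside 5.63% of all genes called higher. At an unadjusted p under 0.05, 3 were higher and 0 lower, beside 9.19% and 7.91% of all genes tested. These were Scn8a, Scn9a and Scn4a, each a pore-forming subunit. Without control 1 the median was 0.14 with 5 positive and 3 negative, and all of Scn8a, Scn9a and Scn4a were called higher, beside 12.1% of all genes tested. The median was 0.341 without control 2 and 0.0872 without epinephrine sample 2.

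Scn8a, the most abundant sodium channel pore here, was at 28.2, 31.3 and 27.8 CPM in the controls and 36.1, 39.2 and 36.9 CPM after epinephrine. The groups did not overlap, and control 1 lay between the other controls. The difference of 0.36 ± 0.09 had an edgeR FDR of 0.0820, and without control 1 it was 0.34 with an FDR of 0.00203. Scn9a, at 6.47, 6.86 and 7.32 CPM against 9.07, 8.69 and 10.8 CPM, did not overlap between groups and differed by 0.46 ± 0.13 (FDR = 0.121). Scn4a, the pore of skeletal muscle, was near the detection filter at 1.17, 0.800 and 0.813 CPM against 2.49, 1.34 and 1.65 CPM, a difference of 0.98 ± 0.32 (FDR = 0.172). Scn3a differed by 0.07 ± 0.17 and Scn3b by -0.09 ± 0.12, and by -0.06 and -0.18 without control 1. Scn1a, Scn2a, Scn3a and Scn9a have 4.03% to 6.49% of their 50-base windows in another gene, largely each other, so the counts of these 4 could be split by the authors' counting.

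Over all members, 12 of 75 lay higher in every epinephrine sample than in every control, and 11 lay lower. The same held for 14.3% and 13.0% of all genes tested, so these counts are near the background. Without control 1, 8 members were called higher (Kcnh1, Kcnh5, Kcnip1, Kcnk1, Kcnt2, Scn4a, Scn8a and Scn9a) and 3 lower (Cacng4, Kcnmb2 and Kcnq3). In that fit 12.1% of all genes were called higher and 9.46% lower, so the calls rose across the table. With DESeq2 on all samples, Kcnip1, Kcnk1, Kcnt2 and Scn8a were higher and Kcnq3 was lower, beside 3.18% and 2.04% of all genes. With edgeR on all samples and the offset for length and GC content, Kcnip1, Kcnk1, Kcnt2, Scn4a and Scn9a were higher and Cacna1h, Cacng4 and Kcnq3 lower, beside 5.63% and 4.9% of all genes. With no filter on low counts Kcnk1 and Kcnt2 were higher and Kcnq3 lower, beside 1.47% and 0.559% of all genes. Without control 3 Kcnk1 was higher and Kcnq3 lower, beside 1.17% and 0.317%. Kcnk1 was called in each of these fits, and Kcnt2 in each but the one without control 3. Neither was called with a replicate block, without control 2 or without any 1 epinephrine sample. With limma on log2(FPKM + 1) Kcnt2 was not called.

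**Figure D4:**
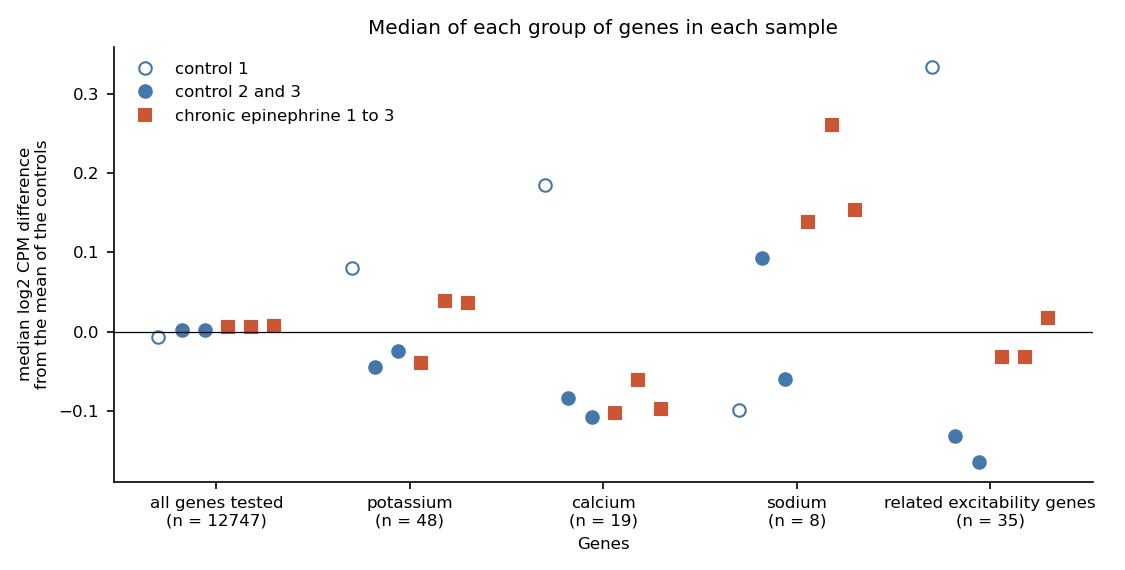
Median difference in log2 CPM from the mean of the controls, for each sample, over all genes tested, the potassium, calcium and sodium channel genes and the related excitability genes. Control 1 lay above the other samples for potassium and calcium channel genes and related genes, and the epinephrine samples lay above the controls for sodium channel genes. The sodium median is over 8 genes, of which 7 had a positive change with all samples and 5 without control 1.

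Other genes of membrane excitability and calcium handling were taken as a list of 41, among them pacemaker and transient receptor potential channels, calcium pumps, intracellular release channels and the sodium pump. Of the 35 tested, 0 were called by edgeR as set up here, beside 2.02% of all genes higher and 0.612% lower. By DESeq2 0 were called, beside 3.18% and 2.04% of all genes. At an unadjusted edgeR p under 0.05, 3 of the list were higher and 3 lower, beside 9.19% and 7.91% of all genes tested. The median was -0.03 on the log2 scale with all samples and 0.10 without control 1, where 7 were called higher and 3 lower, beside 12.1% and 9.46% of all genes tested. With the offset and all samples, edgeR called 1 of the list higher and 3 lower, beside 5.63% and 4.9% of all genes. Control 1 lay 0.33 above the mean of the controls as a median over this list.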

How the data were processed

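Gene symbols, identifiers and 2 kinds of value per sample came from 1 table. The authors deposited expected counts, not normalised between samples, of which 8.34% were not whole and all were rounded here, and FPKM values, which the authors scaled to transcript length and sample total. GRCm38 is the build in the submitters' processing notes, and the aligner and counter are not given in the sources used here. Counts of all genes kept by filterByExpr (minimum count 10) were scaled by TMM, and chronic epinephrine was compared with control by edgeR's quasi-likelihood test (version 4.0.16, R 4.3.3) with Benjamini-Hochberg adjustment over 12747 genes. CPM values are TMM-normalised. The SE is the log2 fold change divided by the square root of F. Alternatives were other scalings, DESeq2 1.42.0, limma 3.58.1 on log2(FPKM + 1) and log2(FPKM + 0.1), other filters, a replicate block, each sample left out and, chosen after seeing the data, an offset for the length and GC content of transcripts (natural splines with 4 degrees of freedom). Positions and shared sequence came from GENCODE release 21, where 22255 of the gene identifiers were found and 43 were not. Genes are named if called, or if among the smallest p (5 potassium, 4 calcium, 3 sodium), the highest FPKM (6, 4 and 3), or a list from beta-cell electrophysiology. Other members are named where they complete a family, a count or an order. Members, lists and the named-gene rule were chosen with earlier results of these data known. Single values of some members are not reported here, and counts include them. The scripts were tested on simulated data.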

Additional observations from a re-analysis of the deposited data

How the results depend on the processing

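Depth limits low transcripts such as Kcnt2, and 3 samples a group limit every test. The cause of the changes below was not tested. Members called higher were 2 and called lower 0 as reported, and these counts became 4 and 1 with DESeq2, 5 and 3 with the offset for length and GC content, 1 and 0 with limma on log2(FPKM + 1), and 2 and 1 with no filter. Of the related genes, 4 were called with the offset and 0 as reported. Replicate numbers were not treated as pairs, since deviations of same-numbered samples correlated at 0.0690, 0.0322 and -0.0543. With a replicate block, 0 members were called, 13 had an unadjusted p under 0.05, and Kcnk1 and Kcnt2 had FDRs of 0.0543 and 0.067. The share of all genes is not given here for the block or for limma. The counts of those fits are therefore not compared with the whole table. Leaving out 1 sample at a time, the calls were 0 to 8 higher, 0 to 3 lower and 0 to 10 among related genes, each highest without control 1. In the fit without control 1, 12.1% of all genes were called higher and 9.46% lower. Such shares are not given here for the fits without control 2 or an epinephrine sample. Over all fits that each left out 1 sample, the number of members whose groups do not overlap was 28 to 35. In them 33.3% to 36.8% of all genes did not overlap, except without control 1, where the share was 47.3% and the members were 35. Each of these fits has fewer samples than the main fit, and fewer samples overlap less often (the block and the Wald test give no such count). Why the share was highest without control 1 was not tested. The sodium median was 0.0872 to 0.3412 in these fits, the latter without control 2.

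Of 480 values of single genes under the alternatives, 427 kept direction and side of the threshold, 12 fell short of the threshold, 17 passed it and 24, of 9 genes, changed sign. On the log2 scale Kcnh6 was -0.0205 with library size only, -3.804e-05 with DESeq2 size factors, and -0.0223 and -0.0213 with limma on FPKM with 0.1 and 1 added. Scn3a was -0.107 and -0.0567 with those limma fits, and Cacna1d -0.0080 with library size only. With the offset Cacna1c was 0.0374 and Cacna1a 0.0811. Leaving out each sample gave -0.0433 to 0.0459 for Kcnh6, -0.0414 to 0.150 for Kcnh2, -0.184 to 0.0825 for Cacna1c, -0.176 to 0.0230 for Scn3b, -0.0078 to 0.107 for Kcnma1, -0.112 to 0.0522 for Cacna1a, -0.0772 to 0.139 for Cacna1d, -0.146 to 0.0673 for Cacnb3 and -0.0645 to 0.198 for Scn3a.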
